A study of Homo sapiens with 6 samples.

Results

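The stretch of human chromosome 10 beyond 60 Mb, which makes up most of its long arm, held 239 of the 9944 transcription start sites (TSSs) that the study listed. Members were taken by position alone, as every listed TSS on chromosome 10 with a start above 60000000 in hg38. Of these, 176 (73.6%) had a BrU-seq value, where 63.6% of all listed TSSs did. Of the 3000 TSSs with read densities, 113 lay here. The stretch itself was selected on the measured densities: an earlier look at these averages had shown high flank density here in both groups, in untagged WT as well as in TY-CFAP20. The densities of the members are therefore given as a description, with no test, and nothing is supported by them.

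The TY epitope was immunoprecipitated from crosslinked chromatin and the DNA sequenced (ChIP-seq) in untreated RPE1 iCas9 p53/puro-dKO cells, a derivative of RPE1, a line of immortalised human retinal pigment epithelium. All cells of both groups thus shared the inducible Cas9 and the p53 and puro double knockout. WT cells (3 libraries) carried no tag, so their signal is antibody background, and CFAP20-KO + TY-CFAP20 cells (3 libraries) lacked endogenous CFAP20 and expressed the tagged protein. The values are the authors' averages over each group, normalised to a Drosophila spike-in, so no replicate error and no p-value can be given. Whether the cells were single clones was not given in the sources used here. Ranges and percentiles below are spreads over TSSs. Taking each of the 3 smallest steps between values as 1 fragment gives a rough depth. At the median member, the TSS density then stood for 11.7 to 48.3 overlapping fragments per position in WT and 21.7 to 51.1 in TY-CFAP20. The values average 3 libraries each, so a step may not be 1 fragment, which was not tested. Of the retinal pigment epithelium markers looked up, OTX2 (10.1), MITF (1.40) and RLBP1 (0.235) had a BrU-seq value, RPE65 was listed without one, BEST1, TYR, PMEL and SERPINF1 were not in the list, and ALB, a liver marker, was at 0.0192.

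RPE1 is known for an unbalanced rearrangement in which extra material of the chromosome 10 long arm is joined to the X chromosome. In ChIP-seq, reads that come from unspecific capture follow the amount of DNA at a locus, so a stretch present in more copies gives a higher background and a higher signal at bound sites. Promoters of active genes are open, GC-rich in most cases and often gather R-loops, hybrids of new RNA with its DNA template. CFAP20 is known as a cilium protein and was examined here in the nucleus, in connection with transcription and replication.

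Promoter sequences are shown for some members at both ends of the TY-CFAP20 signal, because the base composition of those shown differed. They are the 150 bases before the RefSeq start (GRCh38.p14), printed 5′ to 3′ on the strand of the gene. Capitals mark the GC box (GGGCGG or its reverse complement CCGCCC) and the TATA box (TATAAA or TTTATA). The CCAAT box (CCAAT or ATTGG) was searched for as well and had no match in these windows. The first 5 are the members with the largest TY-CFAP20 minus WT difference that have a RefSeq start within 50 bp of the listed TSS. The last 3 are among the 6 smallest differences, with a start within 100 bp.
LCOR (chr10:96832148-96832297, plus strand): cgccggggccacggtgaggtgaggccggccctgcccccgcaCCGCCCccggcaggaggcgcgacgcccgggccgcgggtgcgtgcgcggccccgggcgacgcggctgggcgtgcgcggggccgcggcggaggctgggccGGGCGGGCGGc
SGPL1 (chr10:70815798-70815947, plus strand): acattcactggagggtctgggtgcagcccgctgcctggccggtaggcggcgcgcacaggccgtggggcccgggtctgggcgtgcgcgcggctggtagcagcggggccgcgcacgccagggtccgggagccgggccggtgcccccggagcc
IDE (chr10:92574094-92574243, minus strand): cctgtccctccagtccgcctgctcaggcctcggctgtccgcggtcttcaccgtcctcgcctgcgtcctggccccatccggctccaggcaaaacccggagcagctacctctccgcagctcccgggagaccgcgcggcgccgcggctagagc
BAG3 (chr10:119651230-119651379, plus strand): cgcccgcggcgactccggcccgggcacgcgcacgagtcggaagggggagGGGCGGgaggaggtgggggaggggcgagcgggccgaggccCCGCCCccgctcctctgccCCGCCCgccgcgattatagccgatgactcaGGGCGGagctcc
SIRT1 (chr10:67884506-67884655, plus strand): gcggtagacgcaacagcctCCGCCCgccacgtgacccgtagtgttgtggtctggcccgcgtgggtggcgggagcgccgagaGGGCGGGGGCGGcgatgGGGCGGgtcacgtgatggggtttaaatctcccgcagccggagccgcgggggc
DMBT1 (chr10:122560604-122560753, plus strand): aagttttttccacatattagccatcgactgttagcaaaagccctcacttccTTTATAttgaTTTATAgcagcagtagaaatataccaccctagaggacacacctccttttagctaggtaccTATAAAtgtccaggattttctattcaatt
PLCE1-AS1 (chr10:94287071-94287220, minus strand): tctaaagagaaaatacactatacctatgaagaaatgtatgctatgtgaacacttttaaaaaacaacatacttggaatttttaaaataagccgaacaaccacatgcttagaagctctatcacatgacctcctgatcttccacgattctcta
NUTM2A (chr10:87225298-87225447, plus strand): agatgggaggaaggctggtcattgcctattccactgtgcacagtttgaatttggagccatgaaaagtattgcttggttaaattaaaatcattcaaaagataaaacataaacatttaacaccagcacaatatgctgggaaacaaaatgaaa

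The 5 promoters with large differences had 72.7% to 88.7% GC and between 17 and 29 CpG dinucleotides in these windows. The 3 with differences near 0 had 33.3% to 36.7% GC and at most 2 CpG. Among these, NUTM2A had almost no density at its TSS in WT (0.00432) or TY-CFAP20 (0.0136), so its difference could only be near 0. The split was not clean: DDX21 and CNNM1, also at the ends but not printed, went against it, as given with the GC classes below. BAG3 and SIRT1 each held 4 GC boxes and LCOR 3, overlapping matches counted apart, while SGPL1 and IDE held none. The window of DMBT1 was the only one of the 8 with matches to the TATA box, at 3. Its listed TSS lies inside the window, 89 bp before the RefSeq start, and only the first match is upstream of it. The listed TSS of LCOR, 16 bp before the RefSeq start, precedes the overlapping GC boxes at the end of its window. That of BAG3, 10 bp before, falls within its last GC box.

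The flanks, the outermost 1 kb on each side of the 10 kb window, give the level beside the start sites. Whether this level includes bound protein in TY-CFAP20 was not tested. In untagged WT the median flank density was 1.00 over the 113 members and 0.665 over the TSSs of other autosomes (92.0% of the 3000), 1.51 times as high. In TY-CFAP20 it was 1.19 against 0.756, or 1.57 times. Below 60 Mb on the same chromosome the 35 TSSs had 0.580 and 0.736, so that stretch was at 0.873 and 0.973 of other autosomes. The WT flank was above the median of other autosomes at 111 of the 113 members, and the TY-CFAP20 flank at 112. Above the 95th percentile of other autosomes lay 82 members in WT and 68 in TY-CFAP20, and 0 of the 35 TSSs below 60 Mb in either group. The DNA copy number of the cells was not tested, and input DNA is not used here.

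**Figure D1:**
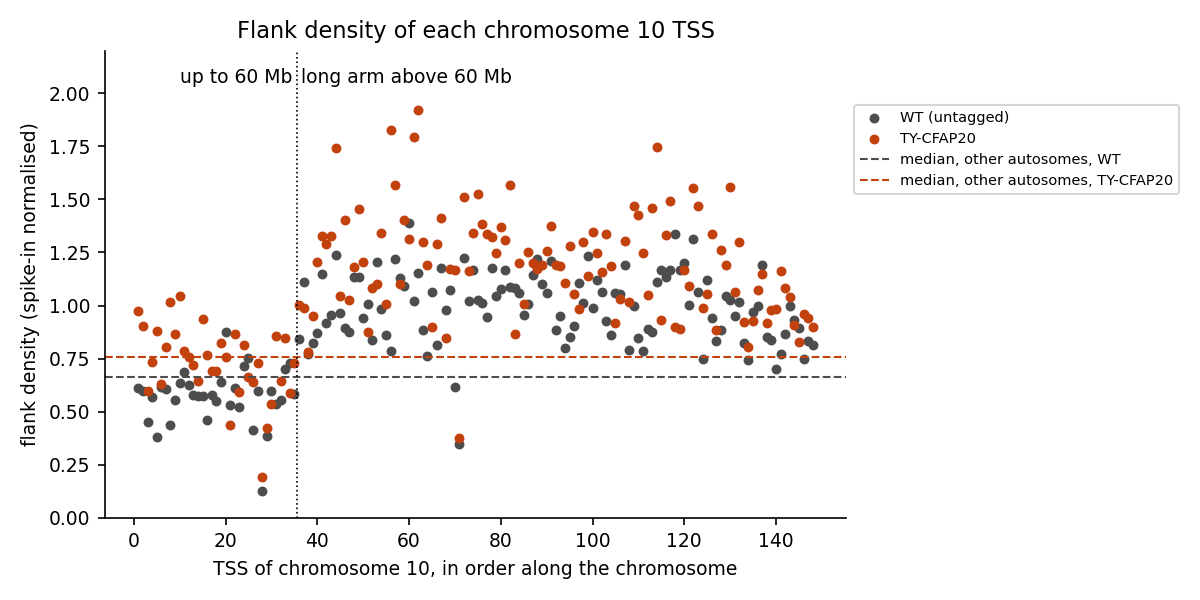
Each point is the flank density of a chromosome 10 TSS (spike-in normalised, y axis) in WT or TY-CFAP20, with TSSs in their order along the chromosome (x axis). Dashed lines are the medians of other autosomes (0.665 and 0.756), and the dotted line separates the 35 TSSs up to 60 Mb from the 113 members, most of which lie above both lines.

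To place the change along the chromosome, the 148 TSSs of chromosome 10 were split by least squares into a lower and a higher level. Such a split returns a step for any series of values and used the flank densities that chose the members, so it is a description and does not show how abrupt the change was. For WT it fell between TFAM (58385022, hg38, 1-based) and CDK1 (60778454), which are neighbours in the table and 2.39 Mb apart, with no measured TSS between them. Mean WT flank density was 0.571 ± 0.129 (SD over 35 TSSs) before the step and 0.993 ± 0.165 (113 TSSs) after it, a ratio of 1.74. In TY-CFAP20 the split fell further on, between EGR2 (62819167) and NRBF2 (63133290), with 0.752 ± 0.178 (39 TSSs) before and 1.20 ± 0.245 (109 TSSs) after. The gene for the mitochondrial transcription factor TFAM had flanks of 0.584 in WT and 0.730 in TY-CFAP20. The gene for the mitotic kinase CDK1 had 0.841 and 1.00.

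Around the limit at 60 Mb, the next members inside were RTKN2 (1.11 in WT and 0.990 in TY-CFAP20), ZNF365 (0.770 and 0.783) and the immediate-early gene EGR2 (0.822 and 0.95). The TSSs outside were CSTF2T (0.556 and 0.644), the Wnt inhibitor gene DKK1 (0.702 and 0.846), the kinetochore gene ZWINT (0.730 and 0.590) and TFAM. In WT these 4 inside values were all above the 4 outside ones, while in TY-CFAP20 ZNF365 lay below DKK1. The groups of TSSs on each side overlap. The highest WT flank below 60 Mb was 0.876 at ZNF37A, and 30 members were at or below it. In TY-CFAP20 it was 1.04 at ACBD7, with 34 members at or below.

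Flank density was not level along the arm. The WT median was 0.966 from 60 to 80 Mb (29 TSSs), 1.06 from 80 to 100 Mb (42 TSSs), 1.02 from 100 to 120 Mb (26 TSSs) and 0.843 beyond 120 Mb (16 TSSs). The TY-CFAP20 medians of these parts were 1.21, 1.20, 1.26 and 0.952, highest from 100 to 120 Mb, whereas WT was highest from 80 to 100 Mb. The last part was thus the lowest in both groups, and still above other autosomes. In bins of 10 Mb, the highest of the 213 bins of other autosomes with at least 5 TSSs stood at 0.848 in WT and 0.974 in TY-CFAP20. The 7 bins of the arm with at least 5 TSSs were all above these values. The last bin, with 3 TSSs, was at 0.816 and 0.943.

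Single members stood apart from this level. NUTM2A, of a family with near-identical copies, had the lowest flanks, at 0.349 in WT and 0.375 in TY-CFAP20, and almost no density at its TSS (0.00432 and 0.0136). The handling of reads that match several copies was not given in the sources used here, so its values are uncertain. SNCG, which encodes gamma-synuclein, came next in WT with 0.615, and the non-coding RNA gene FAM53B-AS1 with 0.700. The highest WT flanks were at the non-coding RNA gene KCNMA1-AS3 (1.39), the cohesin subunit gene SMC3 (1.34) and FAM160B1 (1.31). At SMC3 the TY-CFAP20 flank was lower than in WT, at 0.898.

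Start sites of the arm were raised in both groups as well. Median density within 500 bp of the TSS was 1.13 in WT and 2.17 in TY-CFAP20 at the members, against 0.779 and 1.39 on other autosomes, which is 1.45 and 1.56 times as high. The mean TY-CFAP20 profile of the members peaked at 30 bp, with 2.38 over flanks of 1.19. On other autosomes the summit was 1.55 at 60 bp over 0.765. The summit was 1.99 times its flank on the arm and 2.02 times on other autosomes, so relative to its flank it was alike while its height differed. In WT the highest point of the mean profile lay at 890 bp on the arm and at 180 bp on other autosomes. TY-CFAP20 minus WT peaked at 1.33 at -70 bp on the arm and at 0.774 at -20 bp elsewhere. WT density at the TSS itself was 1.05 on the arm and 0.749 on other autosomes.

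**Figure D2:**
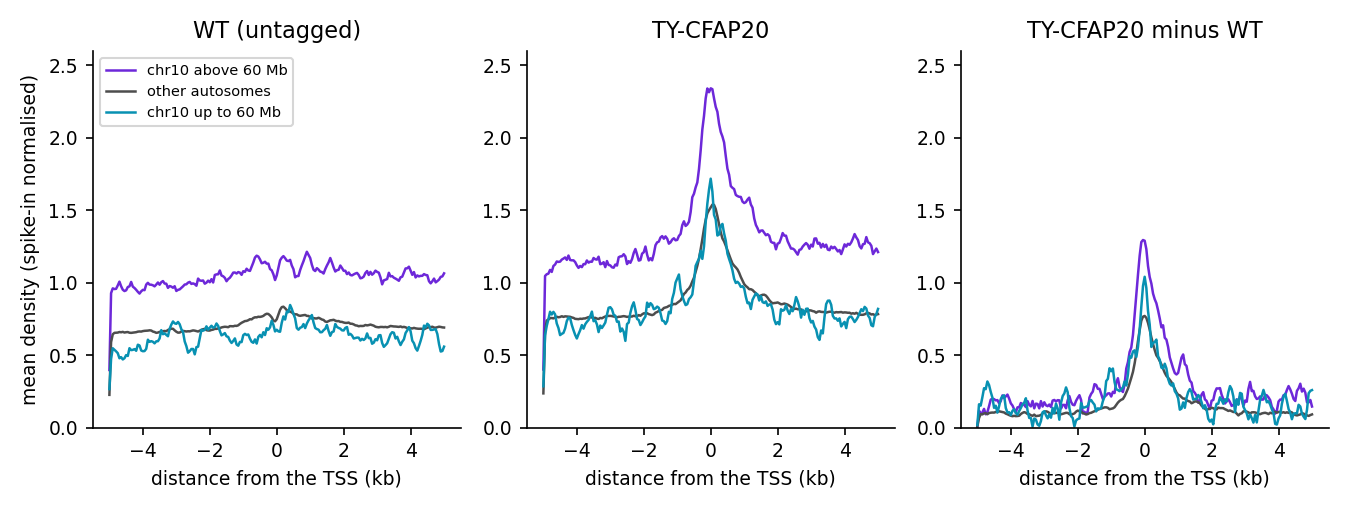
Mean density (spike-in normalised, y axis) by distance from the TSS (x axis) in WT, TY-CFAP20 and as their difference, for the 113 members, the TSSs of other autosomes and 35 TSSs of chromosome 10 up to 60 Mb. The members lie above the other TSSs at every distance in WT and TY-CFAP20, with summits of 2.38 against 1.55 in TY-CFAP20.

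Relative to their own flanks, the start sites of the arm were not raised. TSS density over own flank had a median of 1.74 in TY-CFAP20 at the members and 1.83 on other autosomes, 0.951 times as high. In WT it was 1.11 against 1.16, or 0.957 times. The direct ratio of TY-CFAP20 to WT at the TSS was 1.83 at the members, with 10th and 90th percentiles of 1.28 and 2.50, and 1.71 on other autosomes (1.04 and 2.48). The members' median was thus 1.07 times that of other autosomes, and 4 of the other 21 autosomes had a higher one. Against the 35 TSSs below 60 Mb, whose median ratio was 1.995, the order was the opposite, at 0.916. The flanks had a ratio of 1.18 at the members and 1.14 on other autosomes.

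The difference between the groups, which by construction scales with the level of both, was higher on the arm. Its median was 0.984 at the members and 0.574 on other autosomes, 1.71 times as high, and no other autosome had a higher median (range 0.161 to 0.760). TY-CFAP20 was above WT at 110 of 113 members, where 91.2% of all TSSs were. Of the 300 TSSs with the largest differences, which are 10% of all by definition, 42 were members, or 37.2% of the members. Of the 300 with the largest log2 ratios (10% again, after adding 0.668, the median WT flank density, to both groups), 23 were members. With a threshold of 2-fold on that scale 1.77% of all TSSs passed, and 4 members did: SGPL1, DUSP5, MCMBP and CHST3. A fixed pseudocount lowers ratios less where densities are high, so the arm gains on this scale by construction. Without it, the 90th percentiles of the ratio were 2.50 at the members and 2.48 on other autosomes. The 95th percentiles were 2.67 and 2.72. The shares also come from the densities that marked the stretch and are not read as more than that.

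**Figure D3:**
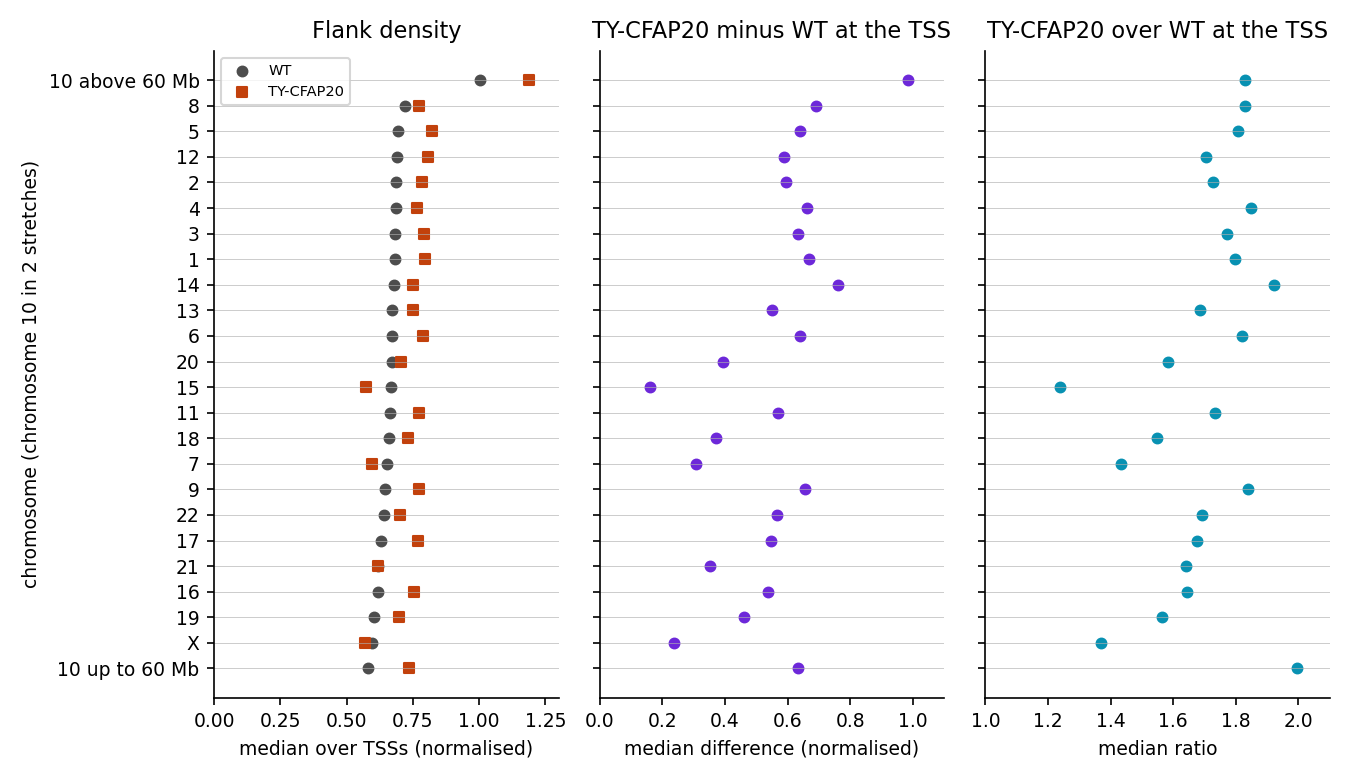
Medians over TSSs for each chromosome (y axis), with chromosome 10 in its 2 stretches: flank density in WT and TY-CFAP20, TY-CFAP20 minus WT at the TSS (all normalised density) and TY-CFAP20 over WT at the TSS (x axes). Chromosome 10 above 60 Mb stands apart in the first panels (1.00 and 1.19, and 0.984), but its ratio of 1.83 lies within the range of other autosomes.

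Dividing the members' densities by the ratio of the arm's median flank density to that of other autosomes, 1.51 in WT and 1.57 in TY-CFAP20, brought the differences to the level of other chromosomes. Only the members were divided, by the flank densities that chose the stretch. The outcome therefore follows largely from the ratios given above and supports nothing. The median difference of the members became 0.597 against 0.574. Of the 300 largest differences 7 were then members, or 6.19% of them, and of the 300 largest log2 ratios 6, or 5.31%. At least 2-fold were 0 members. TY-CFAP20 stayed above WT at 109 of 113. The largest scaled differences were at LCOR and SGPL1 (1.24 each), which then ranked 108 and 109 of the 3000 instead of 3 and 4. How far single genes bind more of the protein and how far they share the level of the arm cannot be told apart in these averages.

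**Figure D4:**
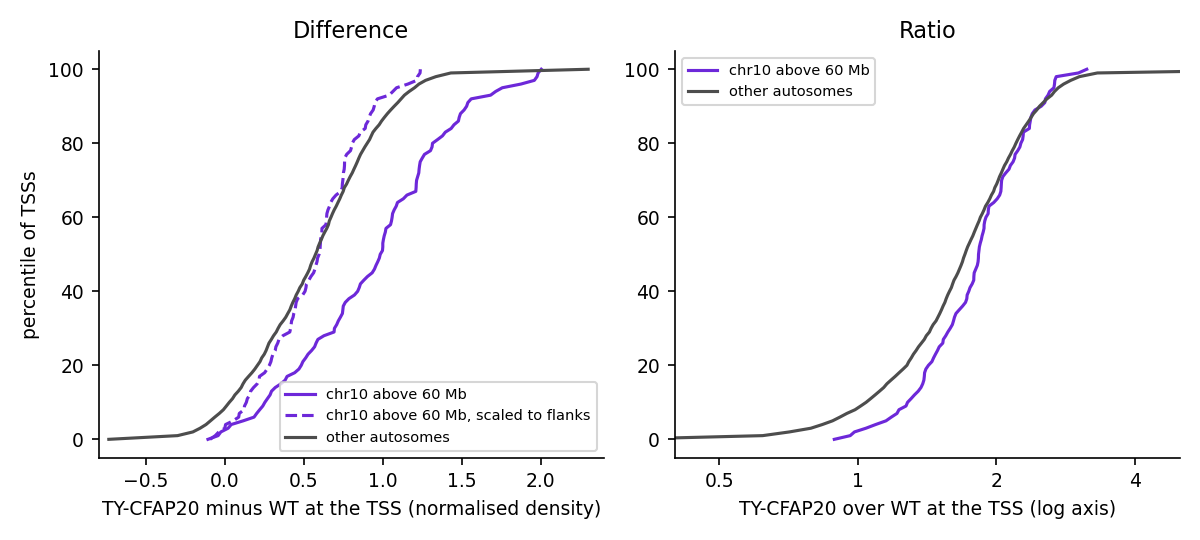
Cumulative share of TSSs (percentile, y axis) by TY-CFAP20 minus WT at the TSS (left x axis, normalised density) and by TY-CFAP20 over WT (right x axis, logarithmic). The members' curve of differences lies to the right of other autosomes (medians 0.984 and 0.574) and, after scaling to the flanks, beside it (0.597), and the curves of the ratio are close (1.83 and 1.71).

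The largest difference on the arm was at LCOR, which encodes a nuclear receptor corepressor, with 1.40 in WT and 3.40 in TY-CFAP20. Its flanks were 1.11 and 0.985, so the TSS rather than its surroundings was high in TY-CFAP20. SGPL1, the lyase that breaks down sphingosine-1-phosphate, had the largest log2 ratio of the arm, at 1.15, with 0.966 in WT and 2.95 in TY-CFAP20 and flanks of 1.01 and 0.876. The highest TY-CFAP20 density of all members was that of IDE, the insulin-degrading protease, at 3.52, over a WT density of 1.54. The BrU-seq levels of these 3 genes were 1.20, 1.28 and 0.913, all below the members' median of 3.07.

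DUSP5, an inducible phosphatase acting on the kinase ERK, went from 1.17 to 3.13 and had high flanks in both groups (1.17 and 1.49). Its BrU-seq level of 91.9 and its DRIP signal of 9606 were among the highest of the arm. MCMBP, a partner of the MCM helicase, stood at 1.26 and 3.21 and the gene of the co-chaperone BAG3 at 1.30 and 3.09. The deacetylase gene SIRT1 had 1.09 and 2.83. CHST3, which sulfates chondroitin chains, had 1.02 and 2.73, TM9SF3 1.22 and 2.90, and DDX21, a nucleolar RNA helicase, 1.00 and 2.56. These 10 differences ran from 2.004 down to 1.55 and ranked between 3 and 26 of all 3000.

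At the other end, TY-CFAP20 was not above WT at 3 members. DMBT1, a secreted scavenger receptor gene with the TATA boxes shown above, had 0.968 in WT and 0.860 in TY-CFAP20. PLCE1-AS1, an antisense RNA gene, had 1.29 and 1.25, and TACC2, a spindle protein gene, 0.978 and 0.941. Their flanks were at the level of the arm, between 0.826 and 1.06 in WT, unlike those of NUTM2A. After NUTM2A, whose difference was 0.00926, came CNNM1 (0.0394), of the CNNM family of metal transporters, and C10orf12 (0.0399). C10orf12 had a BrU-seq level of 5.69, while DMBT1 (0.795) and CNNM1 (0.736) were close to the lowest value of the density tables, 0.693. C10orf12 has no annotated class or start and lies downstream of LCOR on the same strand (96.98 and 96.83 Mb). Whether its BrU-seq level comes from its own start was not tested.

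GC content went with the difference more generally. In the 250 bases before the RefSeq start, available within 500 bp of the listed TSS for 75 members, those with under 55% GC (16 members) had a median difference of 0.743, those with 55% to 65% (24 members) 0.992, and those with 65% or more (35 members) 1.21. Differences of the members overlapped between these classes. The largest under 55% GC was 1.555, that of DDX21, and the smallest at 55% to 65% was 0.0394, that of CNNM1. On other autosomes the same classes had medians of 0.460, 0.635 and 0.696. Across the 75 members Spearman's rho of the difference and GC was 0.447, and across the TSSs of other autosomes matched in the same way 0.224. TSSs share libraries and base composition, so these values carry no p-value. Median WT flanks, which lie beyond 4 kb from the start, were 0.962, 1.00 and 0.980 in the 3 classes of members. The classes give promoter GC, so they cannot show how density goes with the GC of the flanks.

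The promoters of the arm had the same median GC as those of other autosomes, 64.4%. A GC box on either strand was present in 43 of 75 (57.3%), against 67.3% of all 1742 promoters matched in this way. The CCAAT box was in 36.0% against 37.2%, the TATA box in 4 of 75 (5.33%) against 5.68%, and the letters CCGGAA of ETS factors or their reverse complement TTCCGG in 24.0% against 27.5%. These are matches of letters in 250 bases, not binding sites.

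By gene class, the median difference was 1.02 at the 94 protein-coding members and 0.300 at the 17 non-coding RNA genes. On other autosomes it was 0.624 and 0.223, so the members were 1.63 and 1.34 times as high. WT flanks of both classes were alike on the arm, at 0.992 and 1.03. Non-coding genes ranged from PLCE1-AS1, below WT, to RP11-77P6.2, with 0.922 in WT and 2.46 in TY-CFAP20. The remaining 2 members had no annotated class.

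Members were also grouped by function, from lists written with earlier results known. All 113 members had a median difference of 0.984 and all 3000 TSSs 0.571. The 8 measured genes of stress response and chaperones, all above WT, had the highest median of the 8 lists, at 1.29, with DUSP5 (1.96), BAG3 (1.79) and SIRT1 (1.74) at the top and EGR2 (0.438) at the bottom. Of these 8 genes, 6 were among the 300 largest differences, where 37.2% of all members and 10% of all TSSs were. The list named for DNA replication and repair had 3 measured genes with a median of 1.23: MCMBP at 1.95, SMC3 at 1.23 and POLR3A at 0.927. POLR3A is a subunit of RNA polymerase III and no replication or repair gene, and it also stands in the lists for transcription and RNA processing. RNA processing, ribosome biogenesis and translation (8 genes) had 1.18, with DDX21 at 1.56, the RNA-binding protein gene TIAL1 at 1.48, the helicase gene SUPV3L1 at 1.21 and EIF4EBP2, a brake on translation initiation, at 0.843.

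The other lists lay close to the median of all members. The 16 genes of mitochondria and metabolism had 1.04, from SGPL1 and IDE, then the glycolytic gene PGAM1 (1.49), down to FAM213A (0.568). The 15 genes listed under chromatin and transcription regulators, which include the membrane traffic genes REEP3 and ZFYVE27, had 1.01, with LCOR, SIRT1 and the Polycomb gene PCGF5 (1.49) highest and BUB3, better known for the spindle checkpoint, lowest at 0.392. Vesicle and protein traffic (9 genes) had 1.00, with TM9SF3 (1.68), REEP3 (1.40) and FAM45A (1.30) highest and STAMBPL1 (0.262) lowest. Cytoskeleton, adhesion and matrix (5 genes) had 1.05, with LRRC20 (1.21), PDLIM1 (1.06) and TCTN3 (1.05) highest and SAMD8 (0.794), which encodes an enzyme of sphingolipid synthesis, lowest.

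The 9 genes of cell cycle and mitosis had a median of 0.984, that of all members, with a wide range. CCNJ, a cyclin gene, stood at 1.37 in WT and 2.85 in TY-CFAP20. KIF20B, a mitotic kinesin gene, stood at 0.984 and 2.36, and SMC3 at 1.32 and 2.55. CDK1 was low, at 0.820 and 1.18, although its BrU-seq level of 13.8 was above the median of the arm, and TACC2 was below WT. Of the 9 genes 8 were above WT, where 110 of all 113 members and 91.2% of all TSSs were. Among the 300 largest differences were 4 of the 9, where 42 of all 113 members and 10% of all TSSs were.

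Nascent transcription, measured in WT as BrU-seq level in gene bodies, is a separate assay from the ChIP-seq. The median over the 176 members with a value was 1.25, against 0.592 over 5795 TSSs of other autosomes, 2.12 times as high. Below 60 Mb it was 0.311 (103 TSSs). Listed TSSs with a value made up 73.6% on the arm, 64.3% on other autosomes and 56.3% below 60 Mb. The medians leave out the rest. Values were spread widely, with 25th and 75th percentiles of 0.205 and 4.13 at the members and 0.0758 and 2.40 on other autosomes, so single genes overlap almost throughout. Chromosome 22 had a higher median (1.38), and no other autosome did. The arm also held more protein-coding genes, 70.3% of its listed TSSs against 59.7%. Among protein-coding TSSs alone the medians were 1.51 and 0.900, or 1.68 times.

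The density tables hold exactly the listed TSSs of highest BrU-seq level, 3000 in all, so a stretch with higher BrU-seq has more TSSs in them by construction. Of the 239 listed members 113 were in the tables, 47.3% (exact 95% binomial interval 40.8% to 53.8%, counting error only), where 30.2% of all listed TSSs were. Below 60 Mb it was 35 of 183 (19.1%, 13.7% to 25.6%). Chromosome 22, with 48.1%, was the only autosome with a larger share. Of the 126 members without densities, 63 had a BrU-seq value, and the highest were LRRC27 (0.672), the tachykinin receptor gene TACR2 (0.591) and LDB3 (0.589), a gene of the muscle Z-disc.

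**Figure D5:**
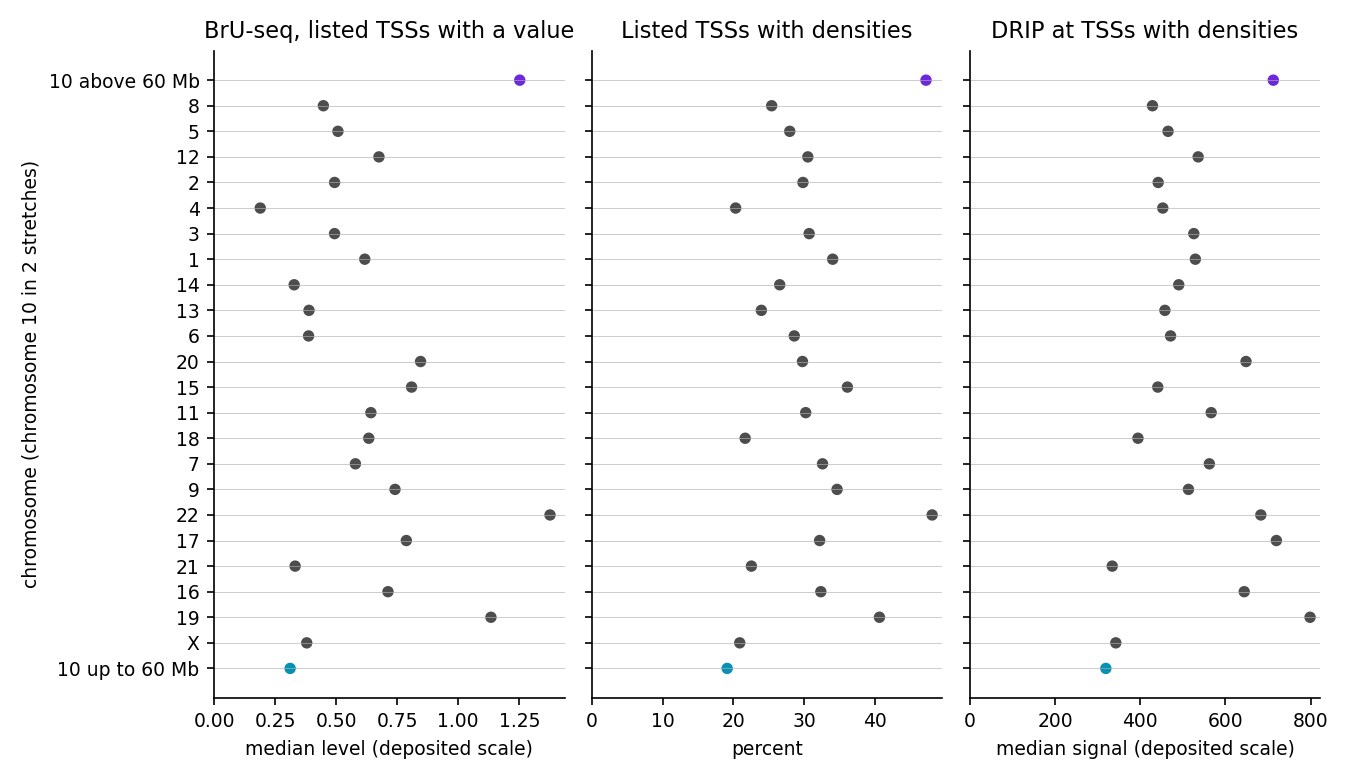
By chromosome (y axis), the median BrU-seq level of all listed TSSs with a value, the percent of listed TSSs with densities and the median DRIP signal (x axes, BrU-seq and DRIP on the deposited scales). Chromosome 10 above 60 Mb is at 1.25, 47.3% and 712, and chromosome 10 up to 60 Mb is at 0.311, 19.1% and 319.

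Within the tables, whose lower limit holds for every chromosome, BrU-seq differed less, at 3.07 on the arm and 2.59 on other autosomes. The highest levels were at PPIF (162), which encodes the mitochondrial cyclophilin, at the ribosomal protein gene RPS24 (98.8), at DUSP5 and at MARVELD1 (81.4). Their TY-CFAP20 minus WT differences were 1.36, 1.01, 1.96 and 0.998, so RPS24 and MARVELD1 were close to the members' median of 0.984. Across the 113 members rho of difference and BrU-seq was 0.256, and 0.164 across other autosomes.

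The WT flank level of the arm was nearly the same in every class of transcription. With all 3000 TSSs divided into 3 equal classes by BrU-seq, WT flanks of the members were 1.52, 1.5 and 1.51 times those of other autosomes from the lowest to the highest class. TY-CFAP20 flanks varied more, at 1.41, 1.66 and 1.54 times. The numbers of members were 38, 35 and 40. The differences were 1.48, 1.81 and 1.60 times as high, and the ratio of TY-CFAP20 to WT 1.08, 1.10 and 1.03 times.

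R-loops, read out as the DRIP signal at the TSS in WT, were higher on the arm too. The median was 712 at the members, with 25th and 75th percentiles of 503 and 1036, and 529 on other autosomes (342 and 952), 1.35 times as high. Below 60 Mb it was 319. Only chromosomes 17 and 19 had higher medians. In the lowest and the middle of the 3 BrU-seq classes the members were 1.5 and 1.46 times as high as other autosomes, and in the highest class 1.17 times. The highest signals were at DUSP5 (9606), ZMIZ1 (4633), which encodes a transcriptional coregulator, and RPS24 (3443). Any correction of the DRIP values for DNA amount was not given in the sources used here.

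A ratio headed CFAP20 over WT, with no assay named, was not higher on the arm. In the authors' deposited table its median was 1.11 at the members, 1.14 on other autosomes and 1.44 below 60 Mb. The highest member in the authors' deposited table was CHST3 with 3.78, and the lowest stood at 0.423.

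Replication origins from OK-seq, a method based on Okazaki fragments, were denser on the arm in the deposited list of origin centres. Its coordinates were taken as hg38, which neither the labels nor the header states. The arm held 91 centres over 72.8 Mb between its first and last listed TSS, 1.25 per Mb, against 0.678 per Mb on other autosomes and 0.771 below 60 Mb. Listed TSSs were no denser, at 3.28 per Mb against 3.30. A centre lay within 10 kb of 11 of the 113 members (9.73%, exact 95% interval 4.96% to 16.7%) and of 6.59% of TSSs on other autosomes. The selection of the list and the cells behind it were not given in the sources used here.

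Nearest to a centre were MYOF (2.31 kb), a membrane repair gene, RP11-432J24.5 (2.31 kb), the non-coding RNA gene OLMALINC (2.39 kb) and PDLIM1 (3.48 kb), followed by RP11-344N10.5 (4.20 kb), CDK1 (4.95 kb), VDAC2 (5.65 kb), a gene of the outer mitochondrial membrane, and MCMBP (6.75 kb). Their differences ran from 0.288 at RP11-344N10.5 to 1.95 at MCMBP. The median difference was 0.971 at the 11 members with a centre within 10 kb and 0.991 at the other 102, which is close to equal. On other autosomes the medians were 0.645 and 0.569. The genes of the 11 had a median length of 42.8 kb, those of the 102 one of 24.5 kb.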

How the data were processed

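Anti-TY ChIP-seq was deposited for 2 groups of 3 libraries. WT reactions held 84 µg of chromatin and 74 ng of spike-in chromatin, TY-CFAP20 reactions 60 µg and 53 ng, per the labels' protocols. The authors deposited read density signal, averaged over each group and normalised to the spike-in, in 1001 positions 10 bp apart, per the file headers. The computation of the spike-in factor was not given in the sources used here. Among the tools in the submitters' processing notes are BWA 0.7.17, HOMER 4.8.2 and STAR 2.7.7a. BrU-seq and DRIP signal and a ratio of CFAP20 over WT were deposited as 1 value per TSS, with no scale or assay stated for the ratio. Library totals are unknown (0 columns of per-sample values were left without a group).

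TSS density is the mean within 500 bp and flank density the mean beyond 4 kb on each side. All differences subtract WT from TY-CFAP20. For log2 ratios a pseudocount of 0.668 was added to both, which understates ratios of low TSSs. Comparisons are of medians, with no test, since averages hold no replicates. Members, lists and rules were chosen with earlier results of these data known.

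Named genes were the 10 largest and 6 smallest differences, the 6 largest log2 ratios, the 3 highest and 3 lowest WT flanks, the 4 highest BrU-seq and 3 highest DRIP values, 4 TSSs on each side of 60 Mb, the 8 nearest to origin centres, 3 high and 1 low gene per list, and the 3 highest BrU-seq values without densities. Biotypes came from GENCODE 44 (105 of 113 members within 100 bp of an annotated start), and RefSeq promoters matched 83 of 113. The step search and windows were tested on simulated data. Alternatives covered windows, flanks, limits of the stretch, means, pseudocount, threshold and scaling. Scripts ran in Python 3.11.15 (pandas 2.3.3, numpy 2.4.6, scipy 1.17.1).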

Additional observations from a re-analysis of the deposited data

How the results depend on the processing

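No paired analysis was possible because only group averages were deposited, and no replicate could be left out for the same reason. Of 99 alternatives, 82 kept their direction and stayed within 1.1 times the reported ratio, within 1.5 times the reported count, within the interval of the share or at the same TSS. Comparing with autosomes other than 7, 15, 19, 20 and 21, scaling to the flanks (except for the 300 largest differences), a smaller pseudocount for the 300 largest log2 ratios and protein-coding TSSs for BrU-seq were chosen after seeing the data. Many alternatives recompute ratios or steps from the flank densities that chose the stretch, so their agreement was largely fixed beforehand and supports nothing. Depth per library is unknown, so single TSSs have no counting error.

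Against chromosome 10 below 60 Mb the WT flank ratio was 1.73 in place of 1.51, the difference 1.56 in place of 1.71 and BrU-seq 4.02 in place of 2.12, and TY-CFAP20 over WT fell to the other side of 1, at 0.916 in place of 1.07. The cause was not tested. BrU-seq was 1.19 times other autosomes in the density tables alone, which hold the highest levels by construction, and 1.68 times for protein-coding TSSs. With scaling to the flanks the difference was 1.04 times that of other autosomes, and the members among the 300 largest differences, among the 300 largest log2 ratios and at 2-fold numbered 7, 6 and 0 in place of 42, 23 and 4. With 0.25 of the pseudocount 15 members were among the 300 largest log2 ratios. The 4 members at 2-fold became 23 within 250 bp, 0 within 1000 bp, 28 and 0 with 0.25 and 4 times the pseudocount, and 64 at 1.5-fold. The TY-CFAP20 step moved from 63.1 to 62.8 Mb with upstream flanks alone.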

Other observations

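A cluster of interferon-induced genes lies on the arm and was picked out after its values were seen. Its 4 members with densities are described here. Another listed gene of the cluster, IFIT1B, lies between IFIT3 and IFIT1 and had a BrU-seq level of 0.0336, too low for the density tables. IFIT2 stood at 1.19 in WT and 1.95 in TY-CFAP20, IFIT3 at 1.42 and 2.19, and IFIT1 at 0.927 and 1.5. IFIT5, the last of the row, had 0.857 and 2.29, a difference of 1.43 that ranked 47 of 3000, where the others had 0.753, 0.774 and 0.576. Its BrU-seq level of 6.91 was also the highest of the 4, ahead of IFIT3 (3.37), IFIT2 (3.07) and IFIT1 (0.821). WT flanks of all 4 were between 0.947 and 1.18.

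The X chromosome, to which extra long-arm material of chromosome 10 is joined in RPE1, had median flanks of 0.595 in WT and 0.570 in TY-CFAP20 over 92 TSSs, or 0.894 and 0.753 of other autosomes. The upper ends differed between the groups. In WT the 90th percentile was 0.988 on X and 0.828 on other autosomes, and in TY-CFAP20 it was 0.777 and 1.005. The cause was not tested.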
